A study of Rattus norvegicus with 8 samples.

Results

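The miR-26 family was examined in small RNA sequencing of rat exosomes through its mature members rno-miR-26a-5p and rno-miR-26b-5p, called miR-26a-5p and miR-26b-5p from here on. They were found by name: of the 1512 rows of the deposited table, 455 carried a rat name, and 2 of these, 1 for each member, held the family among 415 rat mature names. Exosomes are small membrane vesicles that cells release. They came from cells of the rat intervertebral disc, and the NPC group had 4 libraries, from nucleus pulposus cells, which populate the gelatinous core of the disc. The NPPC group had 4, from nucleus pulposus progenitor cells. The series compared the miRNA content of these exosomes. No treatment is named for either group, and the sources used here do not give the rats' strain, age or sex, or how the progenitors were isolated. Nothing in the labels tells whether replicates are separate cultures or rats, so a p-value covers the spread among these libraries alone, and that spread may be technical.

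A microRNA (miRNA) is a short RNA that lowers the output of messenger RNAs by pairing with them, mostly through its bases 2 to 8, the seed. The miR-26 genes lie in introns of genes of small C-terminal domain phosphatases, and the family is abundant in many differentiated tissues. It is known for repressing EZH2, the enzyme that places the repressive H3K27 methyl mark, and in mesenchymal cells for repressing SMAD1, which carries bone morphogenetic protein signals.

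The mature sequences are printed first because both members have the same seed, shown in capitals, and differ only outside it. They are from RefSeq, build GRCr8, which matched both names.
miR-26a-5p: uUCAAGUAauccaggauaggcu
miR-26b-5p: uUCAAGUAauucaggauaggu
Counted from 1 at the 5′ end, the members had 19 of 21 compared bases in common and differed by C11U and C21U (miR-26a-5p first). miR-26a-5p is 22 bases long with 9 G or C, and miR-26b-5p is 21 bases long with 7. Among 693 rat mature names in the RefSeq table, these 2 were the names with that seed. The row of miR-26b-5p in the deposited table held a sequence 1 base longer, of 22 bases, so its GC content there was 31.8% against 40.9% for miR-26a-5p.

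Each member is cut from a hairpin. The RefSeq hairpin named for each is printed to show where the measured arm (the first run of capitals) and its partner (the second) lie.
Mir26a: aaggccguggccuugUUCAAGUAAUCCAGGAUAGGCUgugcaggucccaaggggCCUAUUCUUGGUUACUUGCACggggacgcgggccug
Mir26b: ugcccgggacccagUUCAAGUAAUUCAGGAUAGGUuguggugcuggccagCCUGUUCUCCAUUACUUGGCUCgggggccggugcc
In GRCr8 the hairpin of Mir26a lies at chr8:127633048-127633137 on the plus strand, inside the span of Ctdspl (chr8:127520478-127644999). The hairpin of Mir26b lies at chr9:83425709-83425793 on the plus strand, inside the span of Ctdsp1 (chr9:83422755-83428411). Both spanning genes encode phosphatases of that family.

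Library totals ran from 329011 counts in NPC replicate 1 to 681591 in the other NPC libraries, and from 819845 to 1416940 in NPPC libraries. NPC replicate 1 stood apart, with a TMM scaling factor of 1.83 where the other libraries had 0.837 to 1.02, so results are given with and without it. The second comparison also leaves out NPPC replicate 1, which did not stand apart by this factor (0.962). Results without NPC replicate 1 alone are given beside it. Without both libraries numbered 1 the factors lay between 0.902 and 1.12. Of 6 mesenchymal marker miRNAs all were detected, with 28.8% of the counts in NPC replicate 1 and at most 49.2% in the other NPC libraries, and 46.2% to 47.6% in NPPC libraries. The 4 cartilage markers together held 0.997% to 2.64% in NPC, with the highest value in NPC replicate 1, and 0.758% to 0.917% in NPPC libraries. The 3 red-cell markers held 0.0367% to 0.122% in NPC, with the highest value in NPC replicate 1, and 0.0210% to 0.148% in NPPC libraries. Lists for leukocytes, endothelium, liver, muscle, nerve and epithelium held at most 0.0739% in any library, and of their members only miR-141-3p had no row. Their part in the results below was not tested.

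miR-26a-5p was among the abundant miRNAs of both kinds of exosome, and NPC replicate 1 was the library with little of it. Its share of library counts was 0.535%, 1.80%, 1.66% and 1.67% in NPC replicates 1 to 4, and 1.74%, 1.85%, 1.90% and 1.83% in NPPC replicates 1 to 4. It ranked between the eighth and the eleventh of the rat names in 7 libraries, and 38 in NPC replicate 1. NPPC replicate 1 lay below NPC replicate 2, so the groups overlapped. The NPC mean was 1.42% ± 0.591 (SD, n = 4) and the NPPC mean 1.83% ± 0.0667 (SD, n = 4). The two-sided exact permutation p was 0.0571 over 70 arrangements, with an adjusted p of 0.0571 over the 4 exact tests made on the family.

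miR-26b-5p was the scarcer member, and every NPPC library held a higher share of it than any NPC library. It took 0.0123%, 0.187%, 0.236% and 0.223% of counts in NPC replicates 1 to 4, and 0.246%, 0.317%, 0.293% and 0.297% in NPPC replicates 1 to 4. NPC replicate 1, with 40.5 counts, was the low library, with a 95% Wilson interval of 0.00893% to 0.0166%, which covers counting error only. The nearest libraries of the groups, NPC replicate 3 (0.225% to 0.248%) and NPPC replicate 1 (0.236% to 0.257%), had overlapping Wilson intervals. Mean shares were 0.165% ± 0.104 (SD, n = 4) and 0.288% ± 0.0301 (SD, n = 4). By the same exact permutation test p was 0.0286, the lowest value possible with 70 arrangements, and 0.0571 adjusted over the 4 tests. After the scaling used below, 41 of 444 features (9.23%) were higher in every NPPC than in every NPC library. How many features were apart by share of counts was not counted.

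**Figure D1:**
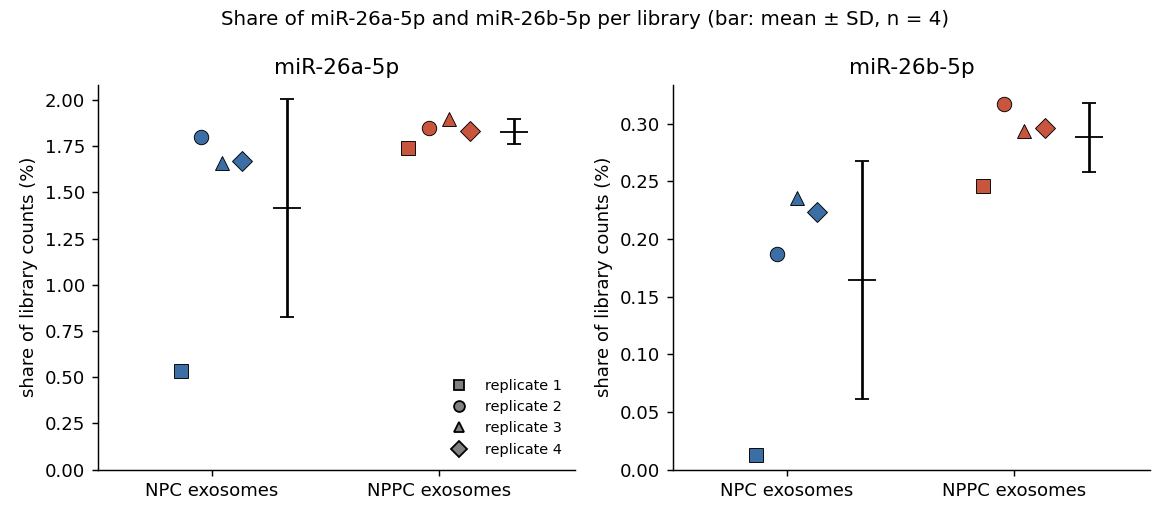
Share of library counts (%) of miR-26a-5p (left) and miR-26b-5p (right) in NPC (blue) and NPPC (red) exosomes; symbols are replicates 1 to 4 and bars the mean ± SD (n = 4). NPC replicate 1 is the lowest library in both panels, at 0.535% and 0.0123%, and the NPPC libraries reach 1.90% and 0.317%.

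Together the members held 0.547%, 1.99%, 1.89% and 1.89% of counts in NPC replicates 1 to 4, and 1.98%, 2.16%, 2.19% and 2.13% in NPPC replicates 1 to 4. These shares overlapped through NPC replicate 2 and NPPC replicate 1, with an exact permutation p of 0.0571. Without the libraries numbered 1 the NPC mean was 1.92% ± 0.0550 (SD, n = 3), the NPPC mean 2.16% ± 0.0323 (SD, n = 3), and the groups did not overlap. In that comparison 87 of 477 features (18.2%) were higher in every NPPC than in every NPC library after the scaling used below. With 3 libraries a group the exact test cannot go below 0.1, the value it gave for each of the 4 measures.

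The ratio between the members was higher in NPC replicate 1 than in the other 7 libraries. There were 43.4 counts of miR-26a-5p for each count of miR-26b-5p in NPC replicate 1, and 9.64, 7.03 and 7.48 in NPC replicates 2 to 4. NPPC replicates 1 to 4 had 7.06, 5.82, 6.47 and 6.17. This ratio needs no scaling factor. NPC replicate 3 lay just below NPPC replicate 1, so the groups overlapped. The difference of the mean log2 ratio, NPPC minus NPC, was -0.94 over all libraries (exact permutation p = 0.0571) and -0.38 without those numbered 1 (exact permutation p = 0.1, where the groups did not overlap). miR-26b-5p thus made up 2.25% of the family in NPC replicate 1, 9.40% to 12.5% in the other NPC libraries and 12.4% to 14.7% in NPPC libraries. How often a ratio of other miRNAs sets the groups apart was not counted.

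**Figure D2:**
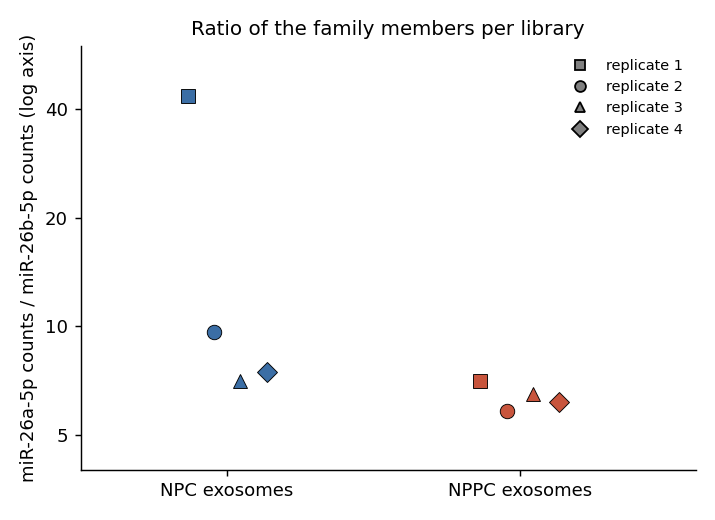
Counts of miR-26a-5p divided by counts of miR-26b-5p (log axis) in each library; symbols are replicates 1 to 4 of NPC (blue) and NPPC (red) exosomes. NPC replicate 1 stands at 43.4, and the other 7 libraries lie between 5.82 and 9.64.

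The comparison of NPPC with NPC exosomes was then fitted over the whole table, with rows of a rat name summed and all other rows kept, using the quasi-likelihood test of edgeR (two-sided) and Benjamini-Hochberg adjusted p. Levels are TMM-scaled CPM, the usual unit of counts brought to a common library size. miR-26a-5p stood at 2936, 17902, 19311 and 16470 CPM in NPC replicates 1 to 4, and at 18093, 20983, 21934 and 21917 CPM in NPPC replicates 1 to 4. On this scale too NPC replicate 3 lay above NPPC replicate 1. The log2 fold change of NPPC over NPC was 0.55 ± 0.49 (SE), with an adjusted p of 0.603 by edgeR.

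miR-26b-5p stood at 66.7, 1857, 2748 and 2202 CPM in NPC replicates 1 to 4, and at 2562, 3604, 3391 and 3552 CPM in NPPC replicates 1 to 4. NPC replicate 3 lay above NPPC replicate 1, so the groups, apart by share of counts, overlapped after scaling. Its log2 fold change was 0.93 ± 0.81 (SE), with an adjusted p of 0.603 by edgeR. Neither member passed, in a comparison where 0 of 444 features tested by edgeR did (0%) and 61 had an unadjusted p under 0.05 (13.7%). Groups without overlap in CPM occurred in 41 features higher in NPPC exosomes (9.23%) and 25 lower (5.63%). The median log2 fold change was 0.052 over all features and 0.30 over the 278 rat names among them.

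Without the libraries numbered 1 both members stood higher in every NPPC than in every NPC library, and miR-26b-5p passed the test. Scaled among these 6 libraries, it stood at 1682, 2480 and 2009 CPM in NPC replicates 2 to 4 and at 3299, 3034 and 3294 CPM in NPPC replicates 2 to 4. It rose by 0.64 ± 0.15 (SE) on the log2 scale, with an adjusted p of 0.0418 by edgeR's quasi-likelihood test. In that comparison 47 of 477 features passed (9.85%), 25 of them higher in NPPC exosomes (5.24%) and 22 lower (4.61%). All 25 had rat names, of which 285 were tested. The call ended when NPC replicate 2 or 4, or NPPC replicate 2, 3 or 4, was left out as well (adjusted p from 0.0842 to 0.163 by edgeR), and with 1 library left out 1 to 38 features passed.

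miR-26a-5p stood at 16214, 17426 and 15022 CPM in NPC replicates 2 to 4 and at 19208, 19625 and 20326 CPM in NPPC replicates 2 to 4. Its log2 fold change was 0.28 ± 0.079 (SE), with an adjusted p of 0.0767 by edgeR, so it did not pass. The median log2 fold change was -0.018 over all features and 0.19 over the 285 rat names among them. With rat names only in the fit, miR-26a-5p had 0.074 (adjusted p = 0.549 by edgeR). Groups without overlap occurred in 87 of 477 features higher in NPPC exosomes (18.2%) and in 84 lower (17.6%). The call of miR-26b-5p did not hold with DESeq2 size factors, where its log2 fold change was 0.63 (adjusted p = 0.0527 by edgeR). Without NPC replicate 1 alone the log2 fold changes were 0.17 for miR-26a-5p and 0.49 for miR-26b-5p, with adjusted p of 0.334 and 0.167 by edgeR.

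**Figure D3:**
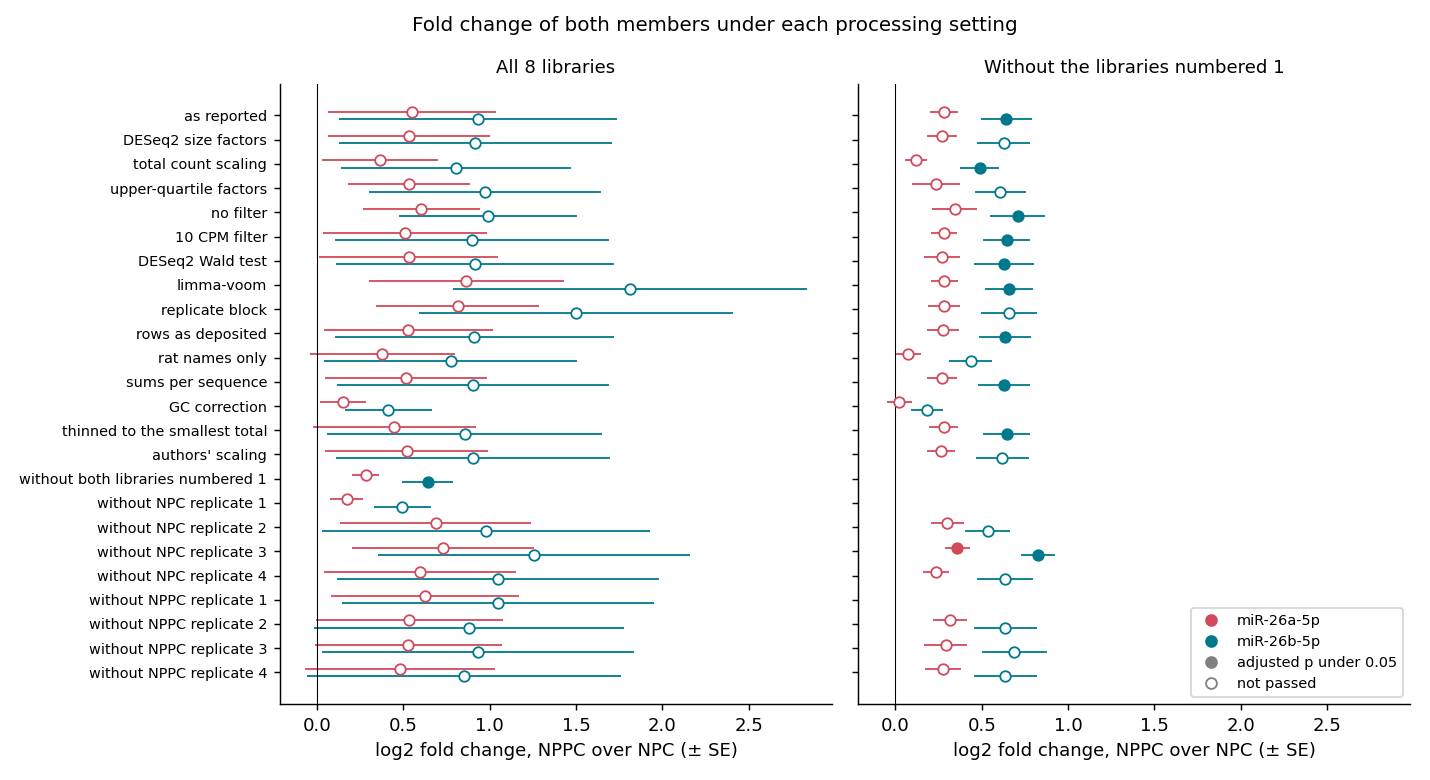
Log2 fold change of NPPC over NPC (± SE) for miR-26a-5p (red) and miR-26b-5p (teal) under each processing setting, with all 8 libraries (left) and without the libraries numbered 1 (right); filled points have an adjusted p under 0.05. All points lie above 0, from 0.023 for miR-26a-5p with the GC correction on the right to 1.81 for miR-26b-5p with limma-voom on the left.

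Across rat miRNAs, the level in NPC replicate 1 was correlated with base composition. Over 167 rat miRNAs with a mean of at least 100 CPM, the Spearman correlation between GC content and the log2 CPM difference of NPC replicate 1 from the other NPC libraries was 0.92. These miRNAs share the library and are not independent, and the cause of the correlation was not tested. miR-26b-5p stood -5.02 from the other NPC libraries on this log2 scale, and 8 of the 167 stood lower. miR-26a-5p stood -2.60, and 26 stood lower. The median over the 167 was -0.67. It was -4.96 over the 13 miRNAs under 35% GC, which include miR-26b-5p, and -2.13 over the 57 from 35% to under 45%, which include miR-26a-5p.

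NPPC replicate 1 showed a smaller difference of the same direction. There miR-26b-5p stood -0.46 and miR-26a-5p -0.26 from the other NPPC libraries in log2 CPM, with a Spearman correlation of 0.48 with GC content. Without the libraries numbered 1, the log2 fold change of NPPC over NPC was still correlated with GC content, at a Spearman rho of -0.41. Its median was 0.48 under 35% GC and 0.28 from 35% to under 45%, beside 0.64 for miR-26b-5p and 0.28 for miR-26a-5p. With a GC correction, the log2 fold changes without the libraries numbered 1 were 0.18 for miR-26b-5p (adjusted p = 0.306 by edgeR) and 0.023 for miR-26a-5p (adjusted p = 0.896 by edgeR). With all libraries they were 0.41 and 0.15. The correction takes no account of group, so it also removes any difference between the groups that varies with GC content.

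**Figure D4:**
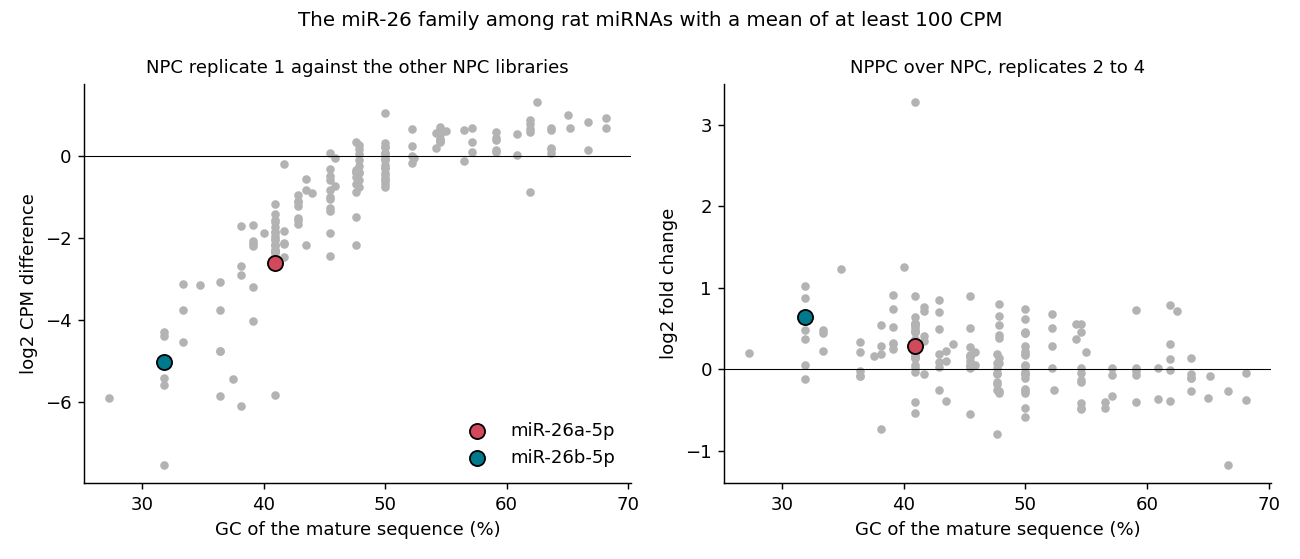
GC content (%) of 167 rat miRNAs, by their sequence in the deposited table, against a log2 value in each panel. The left panel has the log2 CPM difference of NPC replicate 1 from the mean of the other NPC libraries. The right panel has the log2 fold change of NPPC over NPC without the libraries numbered 1. miR-26b-5p (teal) lies at -5.02 and 0.64, miR-26a-5p (red) at -2.60 and 0.28.

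The partner arm of miR-26b-5p, miR-26b-3p, was scarce. It had 6, 7, 9 and 10 counts in NPPC replicates 1 to 4 and was listed at 0 in all 4 NPC libraries. In NPPC libraries that was 6.35 to 7.63 CPM of the total, a rate that gives 2.27 to 4.70 counts at the depth of the NPC libraries. Values under 5 were rare in the table, at 110 of 5153 after summing per sequence, so a listed 0 may stand for a few reads. No fold change is given.

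Of the rows with names of other species, 3 had the same seed. Their sequences are shown because they differ from miR-26a-5p only by an added 3′ end or a single base.
mmu-miR-26a-5p_R+3: tTCAAGTAatccaggataggctttt
mdo-miR-26-5p_R+3: tTCAAGTAatccaggataggctag
tch-miR-26a-2-5p: tTCAAGTAacccaggataggct
The form ending in added T bases had 7, 10, 39 and 41 counts in NPPC replicates 1 to 4 and was listed at 0 in all NPC libraries. The form ending in AG had 0, 9, 0 and 10 counts in NPC replicates 1 to 4 and 10, 15, 13 and 30 in NPPC replicates 1 to 4. The form with the name tch-miR-26a-2-5p had 8, 0, 8 and 6 counts in NPPC libraries and was listed at 0 in NPC libraries. The table places the T-ended form at a hairpin on chromosome 7, from 70287313 to 70287396, without naming the build. It places tch-miR-26a-2-5p at the same stretch, from 70287311 to 70287398, whereas the row of miR-26a-5p is on chromosome 8. The T-ended form begins with the whole sequence of miR-26a-5p, so miR-26a-5p counts cannot be assigned to the chromosome 8 hairpin alone. The longer forms together made up at most 0.295% of the miR-26a-5p counts of a library, and adding them left the 4 exact permutation p values as they were.

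The rat miRNAs whose log2 CPM followed the members most closely were ranked by Pearson correlation, which describes these libraries only. Over all 8 libraries, with 278 rat names, miR-26a-5p and miR-26b-5p had r = 0.997 with each other and each ranked 3 in the other's order. miR-29b-3p, a repressor of collagen genes, and miR-10a-3p led for miR-26a-5p, at 0.997 each, followed after miR-26b-5p by miR-365-3p and let-7c-2-3p, at 0.995 each. let-7c-2-3p (0.998), miR-29b-3p (0.997), miR-493-5p (0.996) and miR-21-5p (0.995) stood with miR-26a-5p at the head for miR-26b-5p. These have a GC content of 31.8% to 39.1%, and the low value of NPC replicate 1 enters each r.

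Over the 6 libraries without those numbered 1, with 285 rat names, the members had r = 0.902 with each other. That placed miR-26b-5p 39 in the order of miR-26a-5p, and miR-26a-5p 32 in that of miR-26b-5p. Highest for miR-26a-5p were miR-30b-5p (0.990), miR-17-5p (0.988), miR-19b-3p (0.986), miR-155-5p (0.986) and miR-196a-5p (0.982). For miR-26b-5p they were miR-181d-5p (0.996), miR-493-5p (0.985), miR-411-3p (0.981), let-7c-5p (0.977) and miR-98-5p (0.977). The members thus had no name in common among the 5 closest of either. Group means were not removed, so a difference between NPC and NPPC libraries enters each r.

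Among other miRNAs reported to repress EZH2, only let-7 members passed without the libraries numbered 1, and not under every setting. Of 11 listed, 9 were tested, 7 had a log2 fold change above 0, which 49.1% of all features and 66.3% of rat names did. By edgeR 4 passed as higher, as did 5.24% of all features, and 0 as lower. That share is 25 features, all with rat names, so it is higher among the 285 rat names than among all features. The median was 0.31, beside -0.018 over all 477 features and 0.19 over 285 rat names. let-7c-5p rose by 0.54 (adjusted p = 0.0311 by edgeR), let-7a-5p by 0.55 (adjusted p = 0.0311), let-7b-5p by 0.50 (adjusted p = 0.0311) and miR-98-5p by 0.88 (adjusted p = 0.0394). All 4 belong to the let-7 family, whose near-identical sequences leave the split of reads between them uncertain, and with the GC correction none passed (adjusted p from 0.0679 to 0.127 by edgeR). None passed with upper-quartile factors either, where the adjusted p ran from 0.0760 to 0.107, or with NPC replicate 1 alone left out, where log2 fold changes were 0.31 to 0.67 and adjusted p 0.189 to 0.351 by edgeR. miR-25-3p, the fourth most abundant, had 0.044 (adjusted p = 0.748), which total count scaling turned to -0.13. miR-101a-3p and miR-101b-3p, EZH2 repressors with a sequence unlike miR-26, had identical counts and a log2 fold change of -0.085 ± 0.23 (SE). With all libraries 8 of the 9 were above 0 (52% of all features and 69.1% of rat names). The list median was 0.29, beside 0.30 over rat names, and 0 passed, also at an unadjusted p under 0.05.

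Of 10 miRNAs reported to repress SMAD proteins, which act in TGF-beta and bone morphogenetic protein signaling, all were tested. Without the libraries numbered 1, 9 were above 0 (49.1% of all features and 66.3% of rat names), with a median of 0.27 beside 0.19 over rat names. By edgeR 4 passed as higher, beside 5.24% of all features, all of those with rat names, and 0 as lower. miR-146a-5p, which represses SMAD4, had the highest log2 fold change of the list, 3.28 (adjusted p = 0.000399 by edgeR). miR-155-5p had 1.23 (adjusted p = 0.0311), miR-23b-3p 0.55 (adjusted p = 0.0445) and miR-145-5p 0.51 (adjusted p = 0.0489). With the GC correction only miR-146a-5p of these 4 passed (3.03, adjusted p = 0.000361 by edgeR), and miR-155-5p had 0.83 (adjusted p = 0.0593). With DESeq2 size factors miR-23b-3p and miR-145-5p did not pass (adjusted p = 0.0594 and 0.0580 by edgeR), nor with upper-quartile factors (0.114 and 0.169). With NPC replicate 1 alone left out, miR-146a-5p passed (3.12, adjusted p = 0.000864 by edgeR), and miR-155-5p, miR-23b-3p and miR-145-5p did not (adjusted p = 0.0881, 0.226 and 0.132). The most abundant, miR-21-5p, a repressor of SMAD7, had 0.32 (adjusted p = 0.243), and miR-199a-5p, a repressor of SMAD1 like miR-26, had 0.019. miR-27b-3p had 0.019 and miR-24-3p 0.21, neither passing, and total count scaling moved miR-199a-5p and miR-27b-3p to -0.15 each. The list member below 0, miR-224-5p, had -0.56 (adjusted p = 0.122 by edgeR). It was lower in every NPPC than in every NPC library, as were 17.6% of all features. At an unadjusted p under 0.05 by edgeR, 4 of the list were higher and 1, miR-224-5p, was lower (12.6% and 13.4% of all features). With all libraries 8 of the 10 were above 0 (69.1% of rat names), with a median of 0.40 beside 0.30 over rat names. By edgeR 0 passed, while 4 higher and 1 lower had an unadjusted p under 0.05 (6.31% and 7.43% of all features).

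**Figure D5:**
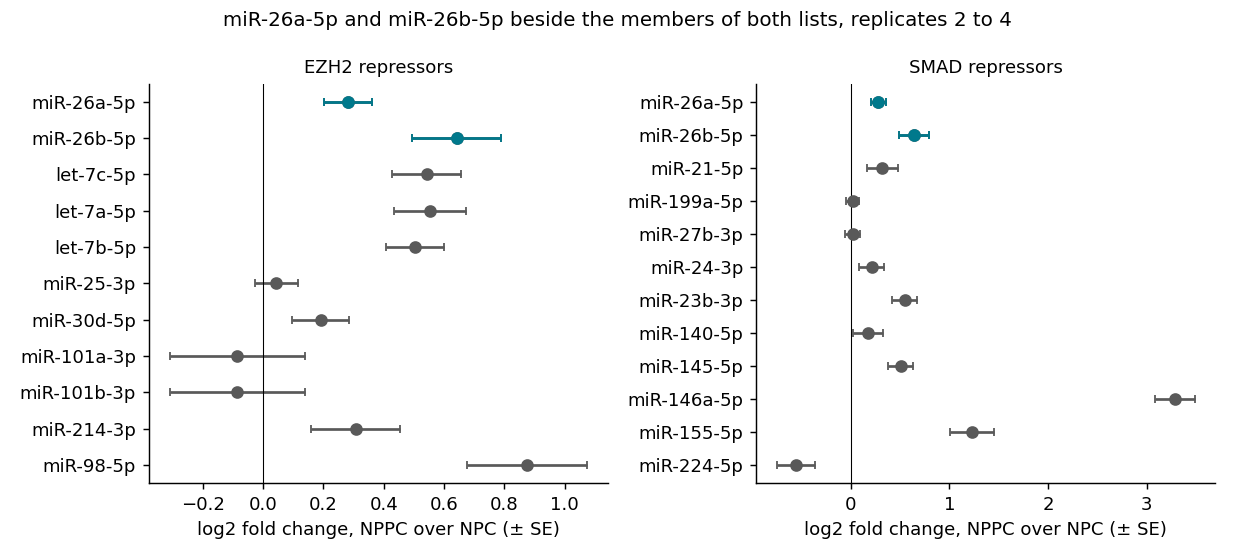
Log2 fold change of NPPC over NPC (± SE) without the libraries numbered 1 for miR-26a-5p and miR-26b-5p (teal) beside the tested members of the EZH2 list (left) and the SMAD list (right), in order of mean CPM. miR-26b-5p at 0.64 lies between let-7a-5p at 0.55 and miR-98-5p at 0.88, and miR-146a-5p at 3.28 is the highest on the right.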

How the data were processed

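For 8 libraries the authors deposited estimated counts of each miRNA row, and 82.3% of the values above 0 were whole numbers (tolerance 1e-09). The authors also deposited scaled signal columns, each the count times 1 factor per library. Per the labels' protocols, RNA came from an exosome RNA kit and libraries from a TruSeq small RNA kit. The submitters' processing notes name CASAVA 1.8. The aligner, the miRBase version and the table's build were not given in the sources used here. Totals of 329011 to 1416940 counts limit the precision of scarce rows.

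Groups and replicate numbers came from sample titles. Rows of a rat mature name were summed, other rows kept, and sums rounded. edgeR 4.0.16 in R 4.3.3 (TMM, filterByExpr, quasi-likelihood test, group only) was fitted to all features, with Benjamini-Hochberg adjustment. An SE is the log2 fold change divided by the root of F. Log2 CPM used a prior count of 2. The GC correction was a loess curve per library (span 0.75) as an offset. Shares and ratios were compared by exact permutation tests with scipy 1.17.1. Other settings used DESeq2 1.42.0 and limma 3.58.1, and the edgeR fits were tested on simulated data. The named miRNAs were both members, the partner arms, rows with the seed, the 5 closest names by Pearson r, and up to 4 per list by mean CPM, plus list members that passed. That addition, miR-101a-3p, miR-101b-3p, miR-224-5p and the GC bands were chosen after values were seen. Cell type markers were matched by name in any species, with or without the arm. The members and lists were chosen with earlier results of these data known.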

Additional observations from a re-analysis of the deposited data

Results flagged for a closer look

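Of 12 groups of 4 libraries examined, 3 had a library far from the other 3 of its group, each time NPC replicate 1. Chance gives about 1 in 20 for a single group. The groups are not independent, so 3 of 12 cannot be set against that rate. Its share of miR-26a-5p was 0.535% (others 1.66% to 1.80%), its share of both members 0.547% (others 1.89% to 1.99%), and its ratio of miR-26a-5p to miR-26b-5p 43.4 (others 7.03 to 9.64). These values rest on the same counts, so they are not separate results. The share of miR-26b-5p in NPC replicate 1, 0.0123% (others 0.187% to 0.236%), was not flagged.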

How the results depend on the processing

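Both members had a positive log2 fold change in all settings run. With all libraries, miR-26a-5p ranged from 0.15 to 0.86 over 15 settings and miR-26b-5p from 0.41 to 1.81. Of these, 1 passed, miR-26b-5p without both libraries numbered 1, at 0.64 (adjusted p = 0.0418). With 1 library left out they ran from 0.17 to 0.73 and from 0.49 to 1.26. The number of features passing was 0, and 1 with total count scaling, DESeq2 size factors, the 10 CPM filter, upper-quartile factors, limma-voom, rat names only, sums per sequence, the GC correction or the authors' scaling, which was added after the data were seen. It was 2 without a filter, 8 with the DESeq2 Wald test, 47 without both libraries numbered 1, and 0 to 2 with 1 library left out. At an unadjusted p under 0.05 the number ran from 29 with rat names only to 124 without both libraries numbered 1. Total count scaling moved the median log2 fold change of all features from 0.052 to -0.35, and from -0.018 to -0.19 without the libraries numbered 1; there miR-26a-5p had 0.12.

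Without the libraries numbered 1, miR-26b-5p passed in 8 of 14 settings. It did not pass with DESeq2 size factors (0.63), upper-quartile factors (0.61), rat names only (0.44), the GC correction (0.18) or the authors' scaling (0.62). With a library more left out it ran from 0.53 to 0.82 and passed only without NPC replicate 3 (adjusted p = 0.0190), as did miR-26a-5p, which ran from 0.23 to 0.36 (adjusted p = 0.0470 there). The adjusted p of miR-26b-5p was 0.0842 without NPC replicate 2, 0.0857 without NPC replicate 4, and 0.101, 0.116 and 0.163 without NPPC replicate 2, 3 or 4. The number passing was 22 with upper-quartile factors, 102 without a filter, 76 with the DESeq2 Wald test, 25 with rat names only, 5 with the GC correction, and 1 to 38 with a library left out. With the replicate block, miR-26b-5p had 0.66 (adjusted p = 0.134) and 1 feature passed, where with all libraries 0 did and the members had 0.82 and 1.50. The cause of these changes between settings was not tested. Same-numbered libraries correlated at 0.573, 0.156, 0.221 and 0.0351 in their deviations from the group means, and not every library correlated best with its own number. NPC replicate 1 had -0.387, -0.295 and -0.357 with NPPC replicates 2 to 4. It enters the group mean behind every NPC deviation, so these correlations cannot settle whether the numbers pair libraries. The main fits did not pair them. miR-26b-5p in NPC replicate 1 rests on 40.5 counts.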
